A study of Mus musculus with 10 samples.

Results

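The genes described here encode the machinery by which presynaptic terminals release and recover synaptic vesicles. They were chosen by name: the synaptotagmins (Syt), synapsins (Syn), vesicle-associated membrane proteins (Vamp), syntaxins (Stx) and their binding proteins (Stxbp), SNAP proteins (Snap), synaptic vesicle glycoproteins (Sv2), complexins (Cplx), RIM (Rims), Munc13 (Unc13), dynamins (Dnm), endophilins (Sh3gl), synaptojanins (Synj), names that begin with Syng, and liprins-alpha (Ppfia), with 8 further genes named in full. Of the 6147 genes in the table, 61 met this rule, and all 61 passed the filter on low values. Of the 8 names given in full, 7 were listed, and Bsn was not analysed here. The rule works by name and uses no measured value, though it was chosen with earlier results of these data known. It also brought in Dnm1l, a dynamin-related protein known for mitochondrial division, and syntaxins and SNAP proteins of endosomes, the Golgi and the endoplasmic reticulum. The label therefore covers general membrane trafficking genes as well as presynaptic ones.

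Frozen neocortex of wild-type mice of the outbred CD1 strain gave polyadenylated RNA, with 2 libraries at each of 5 stages, 10 in all. The stages were embryonic days E12.5, E14, E15.5 and E17, and the day of birth, P0. No group carried a genotype change or a treatment, and the sources do not say whether a library came from 1 animal or from pooled ones. The series calls the 2 libraries of a stage biological duplicates but ties neither to an animal or litter, so the p-values measure the spread between these libraries. Levels are in TPM, read counts divided by gene length and scaled so that each library has the same total, so levels can be compared between genes per length. The sources used here do not give read numbers, so the counting error behind a single value is unknown.

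A synaptic vesicle fuses when a vesicle SNARE protein, synaptobrevin 2, zips together with 2 SNAREs of the target membrane, syntaxin 1 and SNAP-25. Munc13 guides that assembly, complexin binds the assembled complex, synaptotagmin senses calcium and triggers fusion, and NSF with the SNAP adaptors takes the complex apart afterwards. RIM, Piccolo and the liprins build the active zone where vesicles dock, and dynamin, endophilin, synaptojanin and amphiphysin retrieve the membrane. Many of these neuronal proteins have a close relative that serves secretion in most other cells. In the mouse neocortex, the stages sampled span the birth of projection neurons and the growth of their axons.

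Members differed by a median of -0.03 to -0.004 log2 units between the duplicates of E12.5, E14 and E15.5, by -0.06 at P0 and by 0.22 at E17, where 51 of 61 members were higher in replicate 1. The SD of that difference was 0.0727 to 0.107 at the first 3 stages, 0.163 at P0 and 0.238 at E17. Markers of other cell types also moved with stage. Red blood cell genes (3 of the 10 fixed markers were listed) summed to 4323 to 4494 TPM at E12.5 and 1880 to 1975 TPM at E14, against at most 9.84 TPM from E15.5 on. Choroid plexus genes (2 of 5 listed) summed to 303 to 452 TPM at E12.5 and 1405 to 1517 TPM at E14, and to at most 5.26 TPM later. Meningeal genes (5 of 5 listed) summed to 173 TPM at E12.5 and 106 to 111 TPM at E14, and to at most 6.63 TPM later. Postmitotic neuron genes (9 of 10 listed) summed to 1908 to 1990 TPM at E12.5 and 9553 to 10004 TPM at P0, which fits the labelled tissue, while proliferating cell genes (11 of 12 listed) summed to 1438 to 1503 TPM at E12.5 and 171 to 174 TPM at P0. Of the astrocyte genes (5 of 7 listed), 4 rose, with Gfap changing by 4.58 on the log2 scale, and Aldoc fell by 1.09; their sum was 343 to 370.1 TPM at E12.5 and 285 to 290.1 TPM at P0. The single listed vascular gene, Cdh5, was at 13.9 to 15.3 TPM at E12.5 and 1.02 to 1.28 TPM at P0 (log2 change -2.86). The part of these markers in the results was not tested. In bulk tissue, more cells of a type and more RNA per cell cannot be told apart.

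Over the whole span the machinery rose. From E12.5 to P0, 47 members were higher and 9 were lower, and 5 (Stx6, Stx8, Stx18, Stxbp2 and Dnm2) did not pass the test, at an adjusted p under 0.05 by limma on log2(TPM + 1). Among all 6048 genes tested, 27.1% were higher and 51.0% were lower. The median log2 change was 1.41 for the members and -0.27 for all genes tested. Median-of-ratios scaling moved the median of all genes to -0.01 and that of the members to 1.67, so a member at the deposited median of -0.27 kept pace with the typical gene. Summed over the 61 members, the level was 3984 and 3988 TPM at E12.5, 4479 and 4518 TPM at E14, 6509 and 6541 TPM at E15.5, 8688 and 7713 TPM at E17, and 10524 and 10582 TPM at P0. The sums of neighbouring stages did not overlap. From E15.5 to P0, which leaves out both stages with high blood, choroid plexus and meningeal markers, 44 members were higher and 4 (Vamp3, Snap23, Stxbp4 and Unc13b) were lower, against 19.5% and 30.7% of all genes tested. Over any of the 5 stages, 58 of 61 members differed by limma's F test, against 82.9% of all genes tested.

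**Figure D1:**
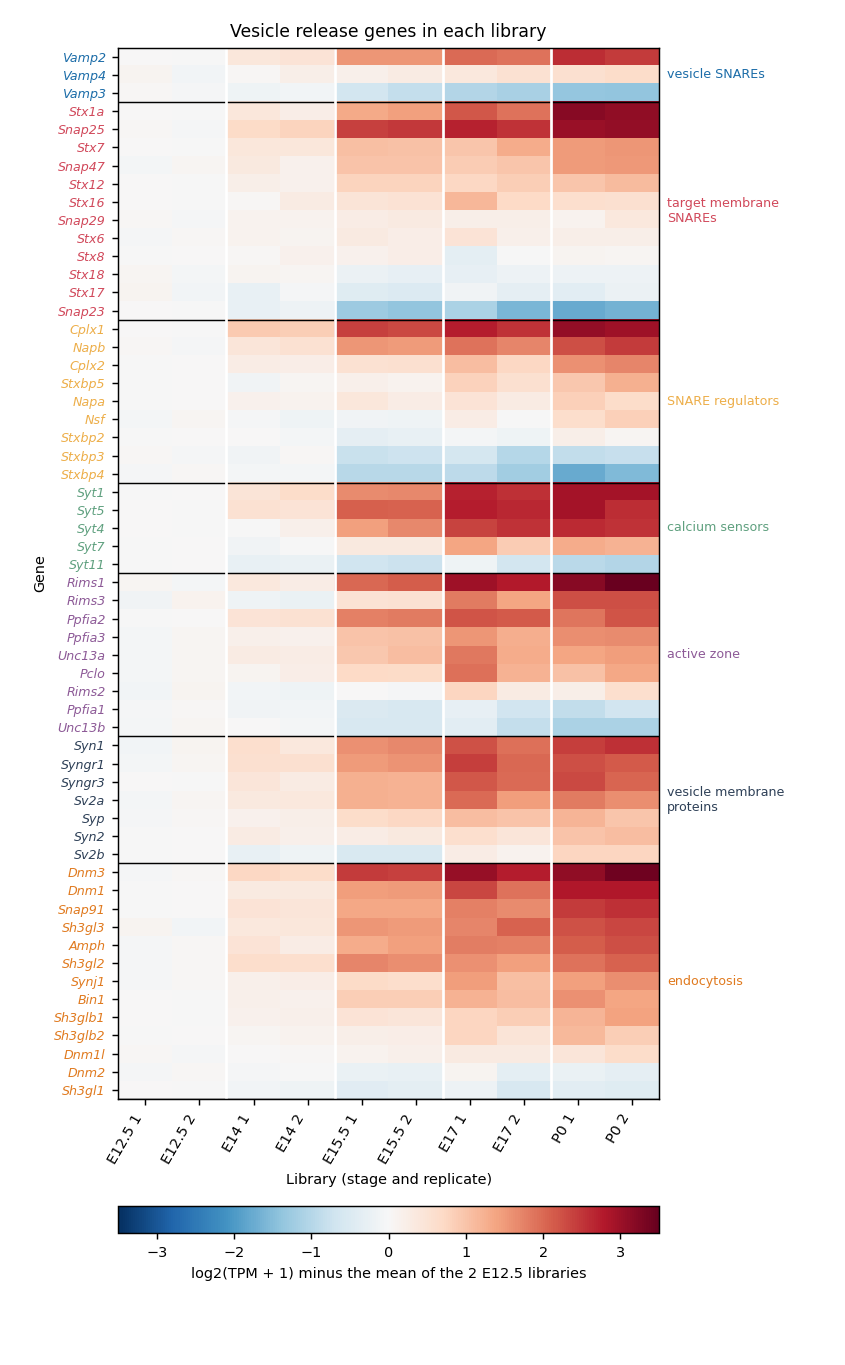
Each cell is one of 58 members in one library, as log2(TPM + 1) minus the mean of the 2 E12.5 libraries; genes are grouped by role and ordered within a role by their change from E12.5 to P0. Most cells turn red from E15.5 on, while Vamp3, Snap23, Stxbp3, Stxbp4, Syt11, Ppfia1 and Unc13b turn blue.

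The vesicle SNARE genes ended with synaptobrevin 2 far in front. Vamp2, which encodes synaptobrevin 2, was at 252 and 250.0 TPM at E12.5, 330.0 and 348 TPM at E14, 729.9 and 736 TPM at E15.5, 999 and 936 TPM at E17, and 1500.0 and 1386 TPM at P0. It rose 5.75-fold in mean TPM (log2 change 2.52 ± 0.08 SE, limma adjusted p = 1.22e-10), and no 2 stages overlapped. Vamp3, which encodes cellubrevin, the form found in most cells, was at 407 and 389.6 TPM at E12.5, 357 and 369 TPM at E14, 255 and 225 TPM at E15.5, 195 and 181 TPM at E17, and 157 and 152 TPM at P0. Its log2 change was -1.36 ± 0.08 SE (limma adjusted p = 2.44e-08), and each stage lay below the one before it in both libraries. The pair thus changed places: Vamp3 was the higher at E12.5 and E14, and Vamp2 from E15.5 on. Vamp4, a SNARE of the trans-Golgi and endosomes, rose by 0.61 ± 0.10 SE from 87.2 to 100.5 TPM at E12.5 to 139.7 to 147 TPM at P0.

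Of the 13 SNAREs of the target membrane, 8 rose and 2 fell, with a median log2 change of 0.57. The neuronal plasma membrane forms rose most. Snap25, which encodes SNAP-25, was at 60.1 and 56.8 TPM at E12.5, 93.2 and 101 TPM at E14, 310.3 and 328 TPM at E15.5, 382 and 341 TPM at E17, and 483 and 496 TPM at P0. It rose 8.37-fold (log2 change 3.04 ± 0.08 SE, limma adjusted p = 4.65e-11), with its largest step between E14 and E15.5. Snap23, the form of most non-neuronal cells, was at 63.3 and 61.03 TPM at E12.5, 51.7 and 55.2 TPM at E14, 24.98 and 23.2 TPM at E15.5, 28.2 and 20.01 TPM at E17, and 17.7 and 19.1 TPM at P0. Its log2 change was -1.71 ± 0.13 SE (limma adjusted p = 3e-07), the largest fall of any member, and its P0 libraries lay below all others. At E12.5 the 2 genes were at nearly the same level per length, with Snap23 higher in both libraries, and at P0 all Snap25 values were above all Snap23 values.

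Stx1a, which encodes syntaxin 1A, kept rising to birth. It was at 18.2 and 17.8 TPM at E12.5, 24.01 and 21.4 TPM at E14, 46.6 and 50.01 TPM at E15.5, 84.5 and 70.04 TPM at E17, and 172 and 162 TPM at P0. Its rise was 9.27-fold (log2 change 3.14 ± 0.10 SE, limma adjusted p = 1.82e-10), the largest among the SNAREs, with steps of 1.06 between E14 and E15.5 and 1.10 between E17 and P0. Unlike Stx1a, 21 members, among them Unc13a, Syn1, Syn2, Ppfia3, Dnm2, Dnm3 and Sh3gl1, have exons that overlap a gene on the opposite strand. Whether counting used strand is not stated in the sources, and without strand the reads of such a pair cannot be told apart.

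The SNAREs of internal membranes moved less. Stx12, an endosomal syntaxin and the target membrane SNARE with the highest mean, was at 204 and 198 TPM at E12.5, 229.6 and 224 TPM at E14, 346 and 345 TPM at E15.5, 331 and 368 TPM at E17, and 397 and 431 TPM at P0. Its log2 change was 1.04 ± 0.08 SE. Stx7, another endosomal syntaxin, rose by 1.52 ± 0.09 SE and Snap47 by 1.51 ± 0.09 SE. Stx16 of the Golgi rose by 0.57 ± 0.13 SE, with its highest library at E17 (172 and 126 TPM, against 115 and 114 TPM at P0). Snap29 rose by 0.25 ± 0.09 SE and Stx17 fell by 0.28 on the log2 scale (SE 0.12). Both calls were lost without single libraries: the adjusted p of Snap29 was 0.116 without E12.5 replicate 2 and 0.146 without P0 replicate 2, and Stx17 lost its call without E12.5 replicate 1, P0 replicate 1 or either E15.5 library. Under quantile normalization the change of Stx17 was near 0 (adjusted p = 0.946). Stx6 (0.21 ± 0.09 SE), Stx8 (0.08 ± 0.11 SE) and Stx18 (-0.17 ± 0.09 SE) did not pass the test. Stx6 and Stx8 were called higher under quantile normalization (0.27 and 0.35) and median-of-ratios scaling (0.48 and 0.35), Stx6 also under array weights, with only the stages compared and without either E17 library. Stx18 was called lower without either E17 library and was above 0 under both scalings.

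Among the 10 genes that assemble or take apart SNARE complexes, 7 rose and 2 fell, with a median log2 change of 0.91. Cplx2, a complexin and the member with the highest mean, was at 548 and 553 TPM at E12.5, 662 and 646 TPM at E14, 794 and 805 TPM at E15.5, 1174 and 906 TPM at E17, and 1684 and 1785 TPM at P0. It rose 3.15-fold (log2 change 1.65 ± 0.11 SE, limma adjusted p = 6.38e-08), with its largest step, 0.75, between E17 and P0. Cplx1 was at 63.6 and 62.2 TPM at E12.5, 119.8 and 115 TPM at E14, 335 and 315 TPM at E15.5, 428 and 366 TPM at E17, and 541 and 499 TPM at P0. It rose 8.27-fold (log2 change 3.03 ± 0.09 SE, limma adjusted p = 7.04e-11), with its largest step, 1.46, between E14 and E15.5. Cplx2 was the higher complexin in all 10 libraries.

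The syntaxin binding proteins differed in direction. Stxbp3, the form of most tissues, was low throughout, at 6.60 and 6.30 TPM at E12.5, 5.79 and 6.63 TPM at E14, 3.38 and 3.52 TPM at E15.5, 3.86 and 2.70 TPM at E17, and 3.10 and 3.27 TPM at P0. Its log2 change was -0.83 ± 0.14 SE, a call lost under quantile normalization (adjusted p = 0.0949). Stxbp4, which binds syntaxin 4, fell by 1.65 (SE 0.12) from 33.4 and 34.8 TPM at E12.5 to 32.4 and 32.5 TPM at E14, 16.8 and 16.99 TPM at E15.5, 17.7 and 14.2 TPM at E17 and 9.40 and 10.97 TPM at P0. Stxbp5, or tomosyn, which holds back SNARE assembly, rose by 1.09 ± 0.13 SE, and Stxbp2 (0.15 ± 0.10 SE) did not pass the test but was called higher under quantile normalization (0.60) and median-of-ratios scaling (0.40).

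The genes for disassembly rose at different times. Nsf, the ATPase itself, was at 21.4 and 23.2 TPM at E12.5, 21.4 and 19.9 TPM at E14, 20.3 and 19.9 TPM at E15.5, 26.6 and 21.9 TPM at E17, and 34.6 and 40.4 TPM at P0. Only its P0 libraries stood above all others, and the change from E12.5 to P0 was 0.72 ± 0.12 SE on the log2 scale. Napa, the adaptor alpha-SNAP of most cells, was at 90.4 and 91.9 TPM at E12.5, 102 and 98.9 TPM at E14, 119.6 and 108 TPM at E15.5, 127 and 111 TPM at E17, and 162 and 143 TPM at P0, a log2 change of 0.73 ± 0.09 SE. Napb, the brain form beta-SNAP, was at 37.7 and 35.02 TPM at E12.5, 49.1 and 52.7 TPM at E14, 107 and 104 TPM at E15.5, 138 and 122 TPM at E17, and 179 and 203 TPM at P0, a log2 change of 2.36 ± 0.09 SE. Napb lay below Napa in every library of the first 3 stages and above it in both libraries of P0.

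Of the 5 synaptotagmins, 4 rose and 1 fell, and the median log2 change of 2.57 was the highest of any role. Syt1, the calcium sensor of fast release, was at 30.1 and 30.7 TPM at E12.5, 42.3 and 47.7 TPM at E14, 97.97 and 100.1 TPM at E15.5, 202 and 182 TPM at E17, and 233 and 236 TPM at P0. It rose 7.72-fold (log2 change 2.91 ± 0.08 SE, limma adjusted p = 7.04e-11), and every stage lay above the one before. Syt4, which lacks full calcium binding, was at 64.5 and 63.7 TPM at E12.5, 63.9 and 73.3 TPM at E14, 176 and 207 TPM at E15.5, 332 and 374 TPM at E17, and 394 and 377 TPM at P0. It stayed above Syt1 in every library. Syt5 rose by 2.75 ± 0.11 SE, and Syt7, a slow, high-affinity calcium sensor, by 1.25 ± 0.13 SE, from 41.9 and 43.03 TPM at E12.5 to 105 and 99.6 TPM at P0.

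Syt11, which does not bind calcium, went the other way. It was the synaptotagmin with the highest mean, at 331 and 335 TPM at E12.5, 280.0 and 282 TPM at E14, 206 and 198 TPM at E15.5, 302 and 212 TPM at E17, and 174 and 163 TPM at P0. Its log2 change was -0.98 ± 0.13 SE (limma adjusted p = 2.24e-05). Its E17 libraries lay apart, and the first of them was higher than every library of E14 and E15.5.

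Of the 9 active zone genes, 7 rose. Rims1, a RIM scaffold that links vesicles to calcium channels, was at 1.16 and 0.962 TPM at E12.5, 1.63 and 1.48 TPM at E14, 7.26 and 7.88 TPM at E15.5, 15.1 and 12.97 TPM at E17, and 17.9 and 21.8 TPM at P0. Its rise of 18.7-fold in mean TPM (log2 change 3.33 ± 0.13 SE, limma adjusted p = 7.16e-10) was the largest of any member, from a start near the filter on low values. Rims3, a short RIM form and the active zone member with the highest mean, was at 33.2 and 40.2 TPM at E12.5, 32.7 and 30.6 TPM at E14, 52.6 and 53.3 TPM at E15.5, 131 and 97.3 TPM at E17, and 177 and 177 TPM at P0. Its log2 change was 2.25 ± 0.13 SE. Rims2 went from 4.77 and 5.51 TPM at E12.5 to 6.07 and 8.28 TPM at P0 (0.40 ± 0.17 SE, limma adjusted p = 0.0452), and its call was lost in 10 of 20 alternatives, among them the fits without E12.5 replicate 1 or P0 replicate 2.

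The Munc13 and liprin genes each split in direction. Unc13a, or Munc13-1, which primes vesicles at most cortical synapses, was at 7.27 and 8.10 TPM at E12.5, 9.50 and 9.38 TPM at E14, 15.7 and 17.3 TPM at E15.5, 30.1 and 20.4 TPM at E17, and 21.4 and 22.9 TPM at P0 (log2 change 1.41 ± 0.15 SE). Unc13b, or Munc13-2, was at 7.33 and 8.002 TPM at E12.5, 7.81 and 7.28 TPM at E14, 4.86 and 4.86 TPM at E15.5, 5.64 and 3.87 TPM at E17, and 3.05 and 3.03 TPM at P0, and fell by 1.10 (SE 0.14), the largest fall in the active zone. The 2 Munc13 genes began at the same level and did not overlap from E14 on. Ppfia3, a liprin of the brain, was at 6.06 and 6.80 TPM at E12.5, 7.47 and 7.18 TPM at E14, 13.96 and 14.2 TPM at E15.5, 20.5 and 16.9 TPM at E17, and 21.8 and 22.4 TPM at P0. Ppfia1, a liprin of many tissues, was at 22.3 and 23.9 TPM at E12.5, 21.3 and 21.6 TPM at E14, a mean of 15.7 TPM at E15.5, 18.9 and 14.03 TPM at E17, and 12.3 and 14.2 TPM at P0. Ppfia1 was above Ppfia3 at the first 3 stages and below it at P0. Ppfia2 rose by 2.04 ± 0.12 SE. Pclo, the giant scaffold Piccolo, rose by 1.19 ± 0.20 SE and had its highest library at E17 (17.6 TPM, against 10.3 TPM in the other E17 library and 9.03 and 11.5 TPM at P0).

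All 7 genes for proteins of or on the vesicle membrane rose, with a median log2 change of 1.73. Syp, or synaptophysin, the member of this role with the highest mean, was at 102 and 108 TPM at E12.5, 116 and 122 TPM at E14, 165 and 174 TPM at E15.5, 223 and 209 TPM at E17, and 242 and 207 TPM at P0. It is often used as a marker of synapses, and at 1.09 ± 0.09 SE its log2 change was below the median of the members. Syn1, a synapsin that tethers vesicles in the reserve pool, was at 12.02 and 13.9 TPM at E12.5, 19.96 and 16.9 TPM at E14, 41.1 and 43.3 TPM at E15.5, 64.1 and 52.02 TPM at E17, and 74.03 and 81.1 TPM at P0. Its rise of 5.98-fold (log2 change 2.49 ± 0.12 SE) was the largest in this role. Syn2 was at 18.4 and 19.2 TPM at E12.5, 23.4 and 21.4 TPM at E14, 22.6 and 24.3 TPM at E15.5, 28.9 and 25.7 TPM at E17, and 38.9 and 40.5 TPM at P0, a log2 change of 1.04 ± 0.10 SE. Syn2 was the higher synapsin at E12.5 and E14, and Syn1 from E15.5 on.

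The SV2 glycoproteins followed different courses, with Sv2a above Sv2b in every library. Sv2a was at 19.2 and 20.96 TPM at E12.5, 25.8 and 26.2 TPM at E14, 48.6 and 47.96 TPM at E15.5, 81.6 and 57.3 TPM at E17, and 73.6 and 64.5 TPM at P0 (log2 change 1.73 ± 0.14 SE). Sv2b was at 12.98 and 13.2 TPM at E12.5, 10.7 and 11.7 TPM at E14, 8.75 and 8.74 TPM at E15.5, 15.9 and 14.3 TPM at E17, and 22.6 and 22.9 TPM at P0 (0.75 ± 0.10 SE). Between E14 and E15.5 its log2 change was -0.32 ± 0.10 SE (limma adjusted p = 0.0209), against a median of -0.13 for all genes. That call was lost in 5 of 20 alternatives: both scalings, and the fits without E14 replicate 2 or either E15.5 library. The synaptogyrins Syngr1 (2.21 ± 0.12 SE) and Syngr3 (2.17 ± 0.10 SE) rose by similar amounts.

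Of the 13 genes for endocytosis and membrane shaping, 11 rose and 1 fell, with a median log2 change of 1.53. Dnm3, a dynamin of brain and testis, was at 4.34 and 4.66 TPM at E12.5, 8.13 and 7.63 TPM at E14, 28.8 and 28.1 TPM at E15.5, 44.5 and 36.2 TPM at E17, and 46.2 and 57.6 TPM at P0. It rose 11.5-fold (log2 change 3.26 ± 0.13 SE, limma adjusted p = 8.34e-10). Dnm1, the main neuronal dynamin, was at 6.16 and 6.32 TPM at E12.5, 8.02 and 8.19 TPM at E14, 18.97 and 19.3 TPM at E15.5, 35.9 and 26.1 TPM at E17, and 49.5 and 49.3 TPM at P0 (log2 change 2.80 ± 0.13 SE). Dnm2, the dynamin of all tissues, was at 26.6 and 27.9 TPM at E12.5, 26.2 and 26.8 TPM at E14, 23.1 and 22.8 TPM at E15.5, 29.2 and 21.4 TPM at E17, and 22.9 and 21.7 TPM at P0. Its change of -0.28 ± 0.13 SE did not pass the test (limma adjusted p = 0.0624) and turned to 0.017 under quantile normalization, while it was called lower under array weights, with only the stages compared and without either E17 library (adjusted p from 0.00231 to 0.0134). Dnm2 was the highest of the 3 at E12.5 and E14 and the lowest at P0.

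Endophilin genes followed the same split. Sh3gl2, endophilin A1 of brain, was at 26.02 and 28.01 TPM at E12.5, 41.5 and 41.4 TPM at E14, 90.3 and 84.95 TPM at E15.5, 84.3 and 75.4 TPM at E17, and 104 and 116 TPM at P0 (log2 change 1.99 ± 0.09 SE). Sh3gl1, endophilin A2 of most tissues, was at 74.1 and 73.5 TPM at E12.5, 69.7 and 66.9 TPM at E14, 56.02 and 57.95 TPM at E15.5, 64.8 and 49.3 TPM at E17, and 57.1 and 54.3 TPM at P0. It fell by 0.40 (SE 0.11, limma adjusted p = 0.00598), against a median of -0.27 for all genes, and it did not pass the test under median-of-ratios scaling (adjusted p = 0.214). Sh3glb1, an endophilin B of intracellular membranes and the member of this role with the highest mean, went from 152 and 150.1 TPM at E12.5 to 169 and 173 TPM at E14, 211 and 204 TPM at E15.5, 254 and 274 TPM at E17 and 349 and 406 TPM at P0. Synj1, a phosphatase that helps uncoat vesicles, rose by 1.53 ± 0.14 SE. Snap91, the clathrin adaptor AP180, rose by 2.50 ± 0.08 SE, Amph by 2.19 ± 0.11 SE and Bin1 by 1.49 ± 0.09 SE. Dnm1l rose by 0.52 ± 0.09 SE.

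**Figure D2:**
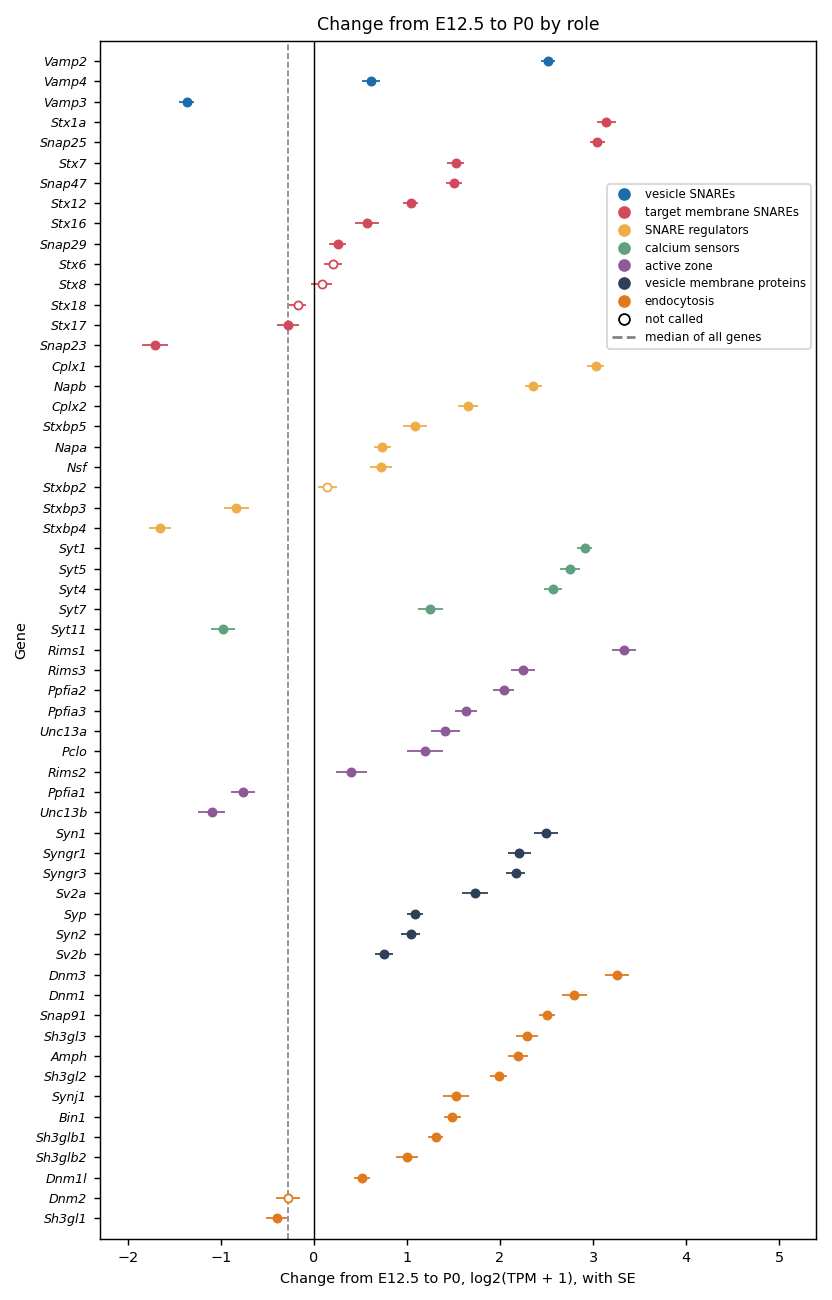
Points are the change of 58 members from E12.5 to P0 on the log2(TPM + 1) scale, with SE from limma over 10 libraries; colours give the role, open points did not pass the test and the dashed line is the median of all genes tested, -0.27. Every role but the vesicle membrane proteins holds a member below 0.

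The falling members were Vamp3, Snap23, Stx17, Stxbp3, Stxbp4, Syt11, Unc13b, Ppfia1 and Sh3gl1. Related genes were also compared within each library, where the scaling of a library cancels apart from the pseudocount. The pairs were chosen with earlier results of these data known, and several set a riser against a faller. How many of them differ is therefore a description of these pairs. Of 18 pairs written down, both genes of 15 were measured. Of these, 14 differed between stages (exact permutation test, F statistic, Benjamini-Hochberg adjusted p from 0.00176 to 0.0170). There were 945 possible splits of 10 libraries into 5 pairs, and the smallest unadjusted p the design allows is 0.00106. The share of other gene pairs that differ was not computed. Of all single genes tested, 82.9% differed over the 5 stages by limma's F test. Snap25 minus Snap23 went from -0.09 ± 0.02 at E12.5 through 0.85 ± 0.01 at E14, 3.67 ± 0.13 at E15.5 and 3.87 ± 0.22 at E17 to 4.66 ± 0.04 at P0 (log2 difference, mean ± SD, n = 2), the widest shift, 4.75. Vamp2 minus Vamp3 went from -0.66 ± 0.04 to 3.22 ± 0.05, a shift of 3.88. Further pairs of a neuronal and a widely expressed form shifted the same way: Dnm3 minus Dnm2 by 3.54, Dnm1 minus Dnm2 by 3.08, Unc13a minus Unc13b by 2.51, Ppfia3 minus Ppfia1 by 2.40, Sh3gl2 minus Sh3gl1 by 2.39 and Napb minus Napa by 1.63.

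The remaining pairs changed less, and in either direction. Cplx2 minus Cplx1 was 3.11 ± 0.03 at E12.5, then 2.47 ± 0.02 at E14 and 1.30 ± 0.07 at E15.5, followed by 1.38 ± 0.11 at E17 and finally 1.74 ± 0.14 at P0 (log2 difference, mean ± SD, n = 2), so the gap between the complexins narrowed up to E15.5 and was wider again at P0. Sv2a minus Sv2b peaked at 2.34 ± 0.01 at E15.5, from 0.58 ± 0.07 at E12.5, and was 1.56 ± 0.14 at P0. Syn1 minus Syn2 shifted by 1.45. Amph minus Bin1 shifted by 0.70, a call lost in 3 of 14 alternatives. Syt1 minus Syt4 (shift 0.34, exact permutation test, adjusted p = 0.0783) was the pair that did not pass the test.

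**Figure D3:**
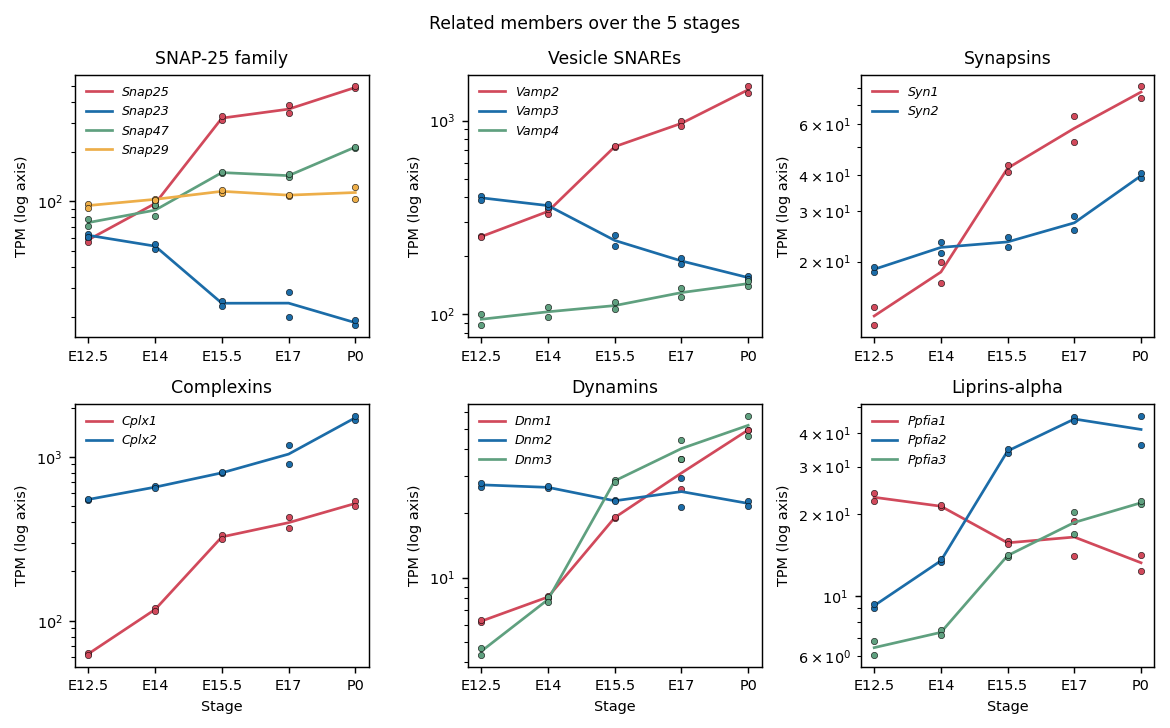
Each panel shows one family in TPM on a log axis, with a point for each of the 2 libraries per stage and a line through the stage means. Snap25 and Snap23, Vamp2 and Vamp3, the dynamins and the liprins cross between E12.5 and P0, as do Syn1 and Syn2, while Cplx2 stays above Cplx1 in every library.

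The first step was small and the second large. From E12.5 to E14, 13 members were higher by limma and 0 were lower, against 3.95% and 4.78% of all genes tested; at an unadjusted p under 0.05, 26 were higher and 0 were lower. The largest of these early rises were those of Cplx1 (0.89 ± 0.09 SE), Snap25 (0.72 ± 0.08 SE) and Dnm3 (0.69 ± 0.13 SE). The count moved with the libraries used. It was smaller without any single library of E12.5 or E14, which leaves that stage without a duplicate. It was larger without either E17 library, although the median change of each role at this step stayed the same. From E14 to E15.5, 36 members were higher and 10 were lower, against 18.4% and 33.3% of all genes tested, with a median change of 0.51 against -0.13. The 10 lower calls were 6, 6 and 5 without E14 replicate 2 and the E15.5 replicates 1 and 2. Rims1 (1.75 ± 0.13 SE), Dnm3 (1.73 ± 0.13 SE), Snap25 (1.71 ± 0.08 SE) and Syt5 (1.57 ± 0.11 SE) had the largest rises here. This is also the step at which the blood, choroid plexus and meningeal markers dropped and the summed neuron genes went from 2534 to 2755 TPM to 6321 to 6488 TPM; their part in the step was not tested.

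Later steps were also read by role. From E15.5 to E17, 36 members were higher and 2, Vamp3 and Stx8, were lower, against 14.4% and 10.6% of all genes tested, but 10 and 12 were higher without E15.5 replicates 1 and 2. The lower count was 0 when the first E15.5 library was left out, and 1 without the other one, without E17 replicate 1 or without any library of E12.5 or E14. Calcium sensors had the highest median at this step, 0.79, with 4 of 5 higher. Of the active zone genes 7 of 9 were higher (median 0.52), and of the vesicle membrane genes 6 of 7 (median 0.49). These medians moved with the E17 libraries. In the same order they were 0.55, 0.29 and 0.30 without E17 replicate 1, and 0.80, 0.76 and 0.74 without its replicate 2. The difference between roles at this step was not tested. From E17 to P0, 28 members were higher and 5 (Vamp3, Stx16, Stxbp4, Syt11 and Unc13b) were lower, against 12.9% and 28.8% of all genes tested. Here SNARE regulators (7 of 10 higher, median 0.40) and endocytosis genes (9 of 13 higher, median 0.39) had higher medians than active zone genes (2 of 9 higher, median -0.14), calcium sensors (1 of 5 higher, median 0.12) and vesicle membrane genes (3 of 7 higher, median 0.08). That difference between roles was not tested, and it moved with the E17 libraries: leaving out E17 replicate 1 gave medians of 0.11 for the active zone, 0.12 for calcium sensors and 0.26 for vesicle membrane genes (4 of 7 higher), and leaving out its replicate 2 gave -0.34, 0.0050 and 0.00064 (for vesicle membrane genes, 3 higher and 2 lower). The 5 lower calls became 15 without E17 replicate 2, and 3 without E17 replicate 1 or either P0 library.

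The order of rise was read from the first stage at which the stage mean had covered at least 0.5 of a member's log2 change from E12.5 to P0. Of the 47 members that rose, 0 reached that point at E14. At E15.5 it was reached by 31, then by 13 at E17, and by the last 3 (Nsf, Sv2b and Syn2) only at P0. For all 1641 genes that rose, 59.4% reached it at E15.5 (66.0% of the members), 23.1% at E17 (27.7%) and 12.9% not before P0 (6.38%). Leaving out E17 replicate 1 put 6 members at P0, and leaving out E12.5 replicate 1 P0 replicate 2 or either E14 library put 1 at E14. On the linear TPM scale the same reading gave 16 members at E15.5 (34.0%, against 44.7% of all genes that rose), 23 at E17 (48.9% against 32.2%) and 8 at P0 (against 19.1%), so both the count at E15.5 and its place above or below the share of all genes depend on the scale. Of the 9 members that fell, Stx17 passed 0.5 of its fall at E14 and the other 8 at E15.5; of all 3087 genes that fell, 4.63% did so at E14 and 62.6% at E15.5. By E15.5, Ppfia2 had covered 87.9% of its log2 rise, Sh3gl2 83.7%, Snap25 79.8%, Cplx1 77.7%, Syt5 75.6% and Dnm3 74.3%. Other genes of the core of fast release lay below Snap25, with Vamp2 at 61.2%, Syt1 at 57.5% and Stx1a at 43.8%. Cplx2 (32.6%), Syt7 (27.3%), Rims3 (23.3%) and Stxbp5 (14.5%) had covered less, and Nsf and Sv2b were still below their E12.5 level.

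The change up to E15.5 and the change after it were compared directly on the log2 scale. By limma, 20 members had a higher early than late change and 8 a lower one, against 12.0% and 16.5% of all genes tested. These counts rested on the E15.5 libraries, which enter both sides: they were 8 and 3 when its replicate 1 was left out, and 6 and 2 when its replicate 2 was. The first count was also 13 and 12 without E12.5 replicates 1 and 2 and 12 without P0 replicate 1, and the second was 5 without E12.5 replicate 1 and 16 without either E17 library. Of the 28 calls, 8 were kept in all 20 alternatives, each of which used a log2 scale. The comparison was not run in linear TPM. Of the 8 calls, 6 were of members that rose mostly early on the log2 scale: Snap25 (early minus late, 1.81 ± 0.14 SE), Cplx1 (1.67 ± 0.15 SE), Dnm3 (1.59 ± 0.22 SE), Ppfia2 (1.54 ± 0.20 SE), Syt5 (1.41 ± 0.18 SE) and Sh3gl2 (1.34 ± 0.15 SE). The other 2 rose mostly late: Sv2b (-1.82 ± 0.18 SE) and Rims3 (-1.20 ± 0.22 SE). Nsf (-1.01 ± 0.20 SE) lost the call in 1 alternative. For Rims1 the value was 0.78 ± 0.22 SE at a pseudocount of 1 TPM and -0.093 at 10 TPM, so its order cannot be read at its low level.

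**Figure D4:**
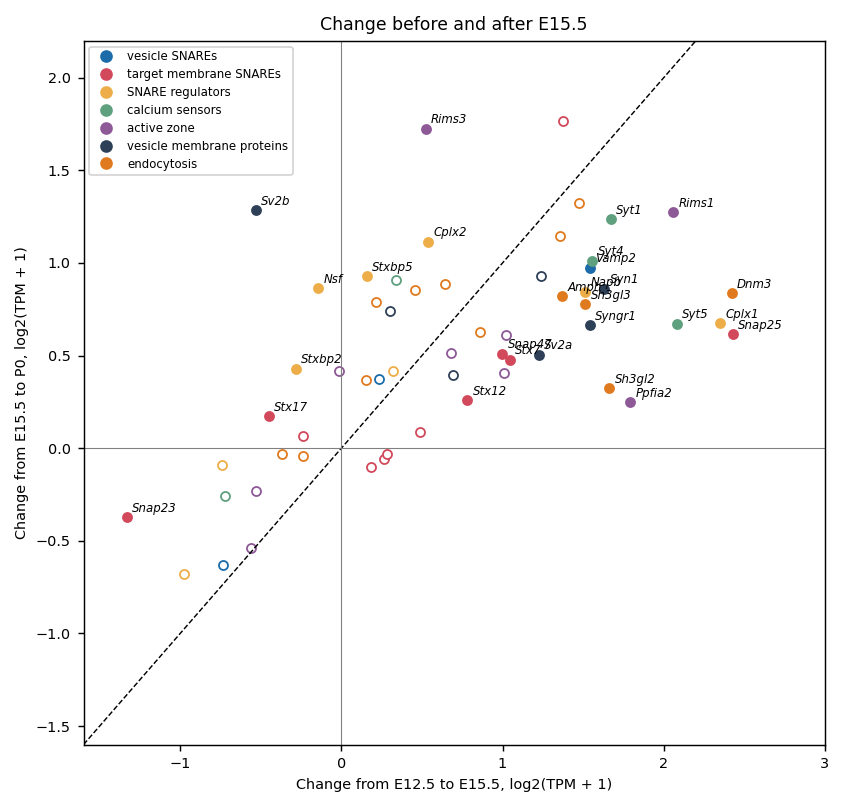
Each point is one of 58 members, with its change from E12.5 to E15.5 on the x axis and from E15.5 to P0 on the y axis, both in log2(TPM + 1); filled, named points passed the test of the difference between the 2 and the dashed line marks equal changes. Snap25, Cplx1, Dnm3 and Syt5 lie far to the right of that line, and Sv2b, Rims3 and Nsf far above it.

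The members were also set against the neurons in the tissue. Relative to the mean of the 9 postmitotic neuron genes, which rose by 2.30 on the log2 scale (from 1.08 for Map2 to 3.68 for Nefl), 9 members were higher at P0 than at E12.5 and 41 were lower by limma. Of all genes tested, 1.93% were higher and 95.9% were lower on this scale, which was chosen after the data were seen. The 9 were Rims1 (1.04 ± 0.14 SE), Dnm3 (0.96 ± 0.13 SE), Stx1a (0.85 ± 0.13 SE), Snap25 (0.75 ± 0.11 SE), Cplx1 (0.73 ± 0.12 SE), Syt1 (0.61 ± 0.12 SE), Dnm1 (0.50 ± 0.15 SE), Syt5 (0.46 ± 0.14 SE) and Syt4 (0.27 ± 0.12 SE). They include a syntaxin 1, SNAP-25, a complexin and the fast calcium sensor. Vamp2 was close to Syt4 in size but did not pass the test (0.22 ± 0.12 SE, limma adjusted p = 0.0855). The neuron genes themselves ran from -1.22 for Map2 to 1.38 for Nefl on this scale, and each was called higher or lower. A member called higher thus rose by more than the mean of the neuron genes, but not by more than each of them.

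Other presynaptic genes outside the naming rule were counted from 7 lists. Of their 69 genes, 49 were measured, of which 31 rose and 8 fell from E12.5 to P0 by limma, with a median log2 change of 0.65. Among all genes tested, 27.1% were higher and 51.0% were lower, with a median of -0.27. These shares are from the main fit, and none is given for the other settings that follow. Under quantile normalization 40 rose and 4 fell, and the 8 falling genes were 5 without E12.5 replicate 2 or P0 replicate 1. All 6 measured active zone scaffolds and partners rose, from Cask (0.48 ± 0.10 SE) to Apba1, or Mint1 (2.71 ± 0.13 SE). All 4 synucleins and vesicle proteins rose, from Scamp1 (0.80 ± 0.07 SE) to Sncb, beta-synuclein (4.04 ± 0.12 SE), which was above every member. Of 11 genes of the Rab3 cycle, priming and calcium sensing, 6 rose and 1 fell, led by Rab3b (3.49 ± 0.10 SE), a vesicle GTPase. Clathrin coat genes were mixed, with 9 of 18 higher, led by the light chain Cltb (2.45 ± 0.07 SE), and 4 lower, led by Pacsin2 (-1.46 ± 0.11 SE), the widely expressed syndapin. Of 6 presynaptic adhesion genes, 4 rose, and 2 fell, led by the phosphatase Ptprf (-1.85 ± 0.18 SE). Of 3 calcium channel genes, Cacna2d3 rose by 1.40 ± 0.11 SE and Cacna2d2 fell by 0.52 (SE 0.13). The single measured vesicle transporter, Slc6a17, rose by 0.81 ± 0.16 SE.

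Promoter sequence was examined as a feature that the naming rule did not use. RefSeq windows on GRCm38.p6, from 250 bases before to 50 bases after each start, were matched for 49 of 61 members. The other 12, among them Snap25, Vamp2, Vamp3, Syt4, Syt5 and Syt7, had no window and were not searched. The search covered 6 motifs on both strands. The left part of RE1, the element bound by the neuronal gene repressor REST, spelled TTCAGCACC, was found in 3 of the 49 (Syn1, Ppfia3 and Unc13a), against 0.503% of 4769 tested genes and 0.433% of all 27025 genes with a window. The right part, the 10 capitals that end the Unc13a sequence given with the sequences, was found in that gene alone among the members, against 0.294% of tested genes. All 3 genes rose, as did 36 of the 49. The cyclic AMP response element, TGACGTCA, was in 4 members (Napa, Sh3gl2, Stxbp3 and Syn1), against 3.86% of tested genes. The NRF1 motif, in capitals in the Ppfia1 sequence, was in 4 (Ppfia1, Snap23, Stx12 and Stxbp5), against 2.73%, and 2 of those 4 genes fell. The GC box, GGGCGG, was in 39, against 74.1% of tested genes, and TATAAA in 2, against 7.53%. With 49 members matched these shares are a description, and a match of letters is not a site shown to be bound.

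The 250 bases before the RefSeq start are given for a riser with both an RE1 part and a CRE and for the 2 liprins that moved in opposite directions, with matches of the RE1 part, the CRE and the NRF1 motif in capitals; GC boxes are not marked. Each is written 5′ to 3′ on the strand of its gene, which is the minus strand for all 3. Syn1 lies at chrX:20920919-20921168, with the RE1 part starting 232 bases and the CRE 159 bases before the start. Ppfia3 lies at chr7:45367020-45367269, with the RE1 part starting 46 bases before the start. Ppfia1 lies at chr7:144553730-144553979, with the NRF1 motif starting 69 bases before the start. The 27-base site of Unc13a, at chr8:71671727-71671753, is written on the plus strand, opposite to the gene. It covers bases 5 to 31 after the start, and its capitals mark both RE1 parts, 8 bases apart.
Syn1: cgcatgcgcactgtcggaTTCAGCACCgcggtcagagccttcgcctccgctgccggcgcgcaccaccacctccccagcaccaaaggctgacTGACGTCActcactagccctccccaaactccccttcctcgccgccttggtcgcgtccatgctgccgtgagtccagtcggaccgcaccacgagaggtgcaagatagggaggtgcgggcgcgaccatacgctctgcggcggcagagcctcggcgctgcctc
Ppfia3: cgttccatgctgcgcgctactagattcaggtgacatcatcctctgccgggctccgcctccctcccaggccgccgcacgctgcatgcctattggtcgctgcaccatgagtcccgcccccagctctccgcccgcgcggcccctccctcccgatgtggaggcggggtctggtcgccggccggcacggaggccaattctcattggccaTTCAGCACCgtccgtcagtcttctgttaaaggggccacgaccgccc
Ppfia1: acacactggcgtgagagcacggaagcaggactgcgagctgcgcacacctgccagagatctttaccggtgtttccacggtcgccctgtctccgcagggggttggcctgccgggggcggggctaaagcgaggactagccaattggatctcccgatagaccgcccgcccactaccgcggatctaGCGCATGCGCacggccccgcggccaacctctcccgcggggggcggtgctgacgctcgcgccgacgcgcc
Unc13a: TTCAGCACCgggggcgcGGACAGCGCC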

How the data were processed

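The deposited table gives TPM, 1 column per library, per the file headers, for 6147 genes chosen by a rule not stated in the sources used here. The submitters' processing notes name STAR, Subread and GRCm38.p5 without a role or order; gene lengths, annotation and the use of strand in counting are not given. Per the labels' protocols, tissue was pulverised in detergent, the lysate was cleared by centrifugation and polyadenylated RNA was made into stranded libraries, so RNA in the pellet was not sampled. The listed genes sum to 68.9% to 71.7% of the TPM total per library. TPM are shares of a total, so a rise of abundant genes lowers the others, and depth is unknown.

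Stages came from the labels, and 0 columns of values lacked a sample. A filter on the mean of all 10 libraries, at least 1 TPM, removed 99 genes and kept 6048. Values were analysed as log2(TPM + 1), which understates the change of low genes. Tests used limma (3.58.1, in R 4.3.3). Its model had a mean for each stage, all 10 libraries, 5 residual degrees of freedom and empirical Bayes moderation with a mean-variance trend. The Benjamini-Hochberg adjustment ran over all genes tested, with a call at an adjusted p under 0.05. With 2 libraries per stage, precision rests on the spread shared by the 5 stages, and the median SE of a difference was 0.107 log2 units. Rose, fell, higher and lower refer to calls unless values are given alone. Pairs of related genes were tested by an exact permutation test. The scripts were tested on simulated data.

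The members, lists, roles, pairs and motifs were chosen with earlier results of these data known. By rule, values in every library are given for most of the genes chosen as the members of each role with the highest mean, the largest rise and the largest fall or smallest change, and for most genes of the pairs discussed; Nsf and, at some stages, Pclo, Stx16 and Syt7 were added after their values were seen, and of the other lists the gene with the largest rise and fall is named. Positions came from GENCODE release M21; exons of 21 members overlap a gene on the opposite strand and 0 one on the same strand. Of the fixed microglia and oligodendrocyte markers, 1 of 7 each was listed, and the microglia gene, C1qb, was not called (log2 change -0.11). Tables and figures were made with matplotlib 3.10.9, pandas 2.3.3 and numpy 2.4.6 under Python 3.11.15. The results of some genes are not reported here, and they are left out of the figures, though counts and sums include them.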

Additional observations from a re-analysis of the deposited data

How the results depend on the processing

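The settings tried were array weights, no variance trend, median-of-ratios scaling, quantile normalization, a filter at a mean of 5 TPM or none, pseudocounts of 10 and 0.1 TPM, a replicate block, only the libraries of the stages compared, and each library left out in turn; 2 more, the scale relative to neuron genes and E15.5 in place of E12.5, were chosen after seeing the data. Of the 56 members called between E12.5 and P0, 51 were called in the same direction in all 20 alternatives. The other 5 were Rims2 (lost in 10), Stx17 (lost in 8), Snap29, Sh3gl1 and Stxbp3; the cause was not tested.

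Leaving out 1 library at a time gave, between E12.5 and P0, 45 to 48 members higher and 8 to 11 lower, and 30 to 32 companion genes higher and 5 to 8 lower. It gave 2 to 27 higher and 0 to 2 lower from E12.5 to E14, 30 to 38 and 5 to 13 from E14 to E15.5, 10 to 43 and 0 to 2 from E15.5 to E17, and 19 to 33 and 3 to 15 from E17 to P0. It gave 6 to 24 members with a higher early change and 2 to 16 with a lower one, 53 to 61 that differed over any stage, and 13 to 15 gene pairs that differed. Of members that rose, 0 to 1 passed 0.5 of the rise at E14, 30 to 32 at E15.5, 10 to 14 at E17 and 2 to 6 at P0.

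Shares of all genes called were computed for the main fit, for E15.5 to P0 and on the neuron scale only. The other counts here, and those with a library left out, have no such share beside them. In them a shift of all genes cannot be told apart from one of the members. From E12.5 to E14 the 13 higher members became 23 under quantile normalization, 21 under median-of-ratios scaling, 32 (with 4 lower) under array weights and 31 (with 5 lower) with only the stages compared. From E14 to E15.5 the 10 lower members became 6 under quantile normalization. From E15.5 to E17, 18 were higher and 0 lower under array weights, and 5 and 0 with only the stages compared. From E17 to P0, 16 were higher and 2 lower under array weights, 15 and 2 with only the stages compared, and 3 were lower under median-of-ratios scaling. Members with a higher early change numbered 13 at a pseudocount of 10 TPM, and those with a lower one 18 under array weights and 16 with only the stages compared. Companion genes that fell were 4 under quantile normalization and 5 under median-of-ratios scaling. Relative to the neuron genes the counts were 9 and 41, and with E15.5 in place of E12.5, 4 were lower. In TPM, 16, 23 and 8 members passed 0.5 of their rise at E15.5, E17 and P0. Signs turned for the early minus late change of Rims1 (-0.093 at a pseudocount of 10 TPM), for Dnm2 (0.017) and Stx18 (0.12) under quantile normalization, and for Stx18 (0.091) under median-of-ratios scaling; neither Dnm2 nor Stx18 was called as deposited. The cause of these shifts was not tested.

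The correlations of replicate differences between stages ran from -0.375 (E12.5 with E17) to 0.107 (E14 with P0). Replicate numbers are not known to link libraries of different stages, so these values cannot exclude a batch shared under other numbers. With a replicate block, the E12.5 to P0 counts were 46 and 8, with 14 and 0, 34 and 9, 33 and 2, and 27 and 5 over the 4 steps, and 18 and 7 for the early minus late change. The unknown read depth and 2 libraries per stage limit what can be said of members at a few TPM, such as Rims1, Rims2, Stxbp3 and Pclo.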
